A study of Mus musculus with 4 samples.

Results

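T and NK cells were rare passengers in microvascular fragments prepared from mouse brain. They were picked as barcodes with more than 500 detected genes, less than 10% mitochondrial UMIs, at least 3 of the 8 transcripts *Cd3e*, *Cd3d*, *Cd3g*, *Trac*, *Trbc2*, *Nkg7*, *Ccl5* and *Ms4a4b*, and 0 UMIs of the B cell gene *Cd79a*. Of 17999 cells that passed the first pair of filters, out of 19809 deposited barcodes, 82 (0.456%) met the rule. A UMI is a molecular tag that counts 1 captured transcript, and expression levels are given as CPM, the UMIs of a gene scaled to a common total over the same cells. The fragments came from brains of 3-month-old mice that were either *Angpt2*-WT (2 mice, WT1 and WT2) or homozygous for a constitutive *Angpt2* deletion (2 mice, KO1 and KO2), and each mouse gave 1 single-cell library. *Angpt2* encodes angiopoietin-2, a ligand of the endothelial receptor Tie2. The deletion was made by crossing floxed mice with the germline deleter Pgk-Cre on a C57BL6/J background, and the controls were wild-type littermates. Both mice numbered 1 were females and both numbered 2 were males. The fragments were pulled down with beads against PECAM1, an adhesion molecule of endothelial cells (ECs) that leukocytes also carry, and the labels name the whole sample as endothelial. Since the deleted exon 4 lies outside the 3′ end that these libraries read, *Angpt2* UMIs could not check the genotype: all other cells had 17.6, 14.5, 58.5 and 36.7 CPM in WT1, WT2, KO1 and KO2.

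T cells carry a T cell receptor made of variable chains, held at the membrane by the CD3 proteins, which pass its signal on through the kinases Lck and Zap70. NK cells lack that receptor and instead read activating and inhibitory receptors of the Klr and Ncr families, and kill targets with perforin and granzymes. In the healthy brain both are scarce, and most lie in the blood, along vessels and in the meninges. Lymphocytes move between blood and tissue with integrins, selectin ligands and chemokine receptors that meet their partners on ECs.

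Before any level is read, 2 kinds of barcodes stand apart among the 82. First, 15 barcodes also held at least 3 of 7 EC transcripts (*Pecam1*, *Cdh5*, *Kdr*, *Tek*, *Cldn5*, *Flt1*, *Tie1*), and 10 of them held all 7. These mixed barcodes came from WT1 (4), WT2 (10) and KO2 (1), with 0 from KO1, and had a median of 9933 UMIs against 4338 in the other 67. In those other 67, 30 barcodes had 0 of the EC transcripts, 33 had 1 and 4 had 2, so the label of endothelial cell went against their own transcripts. Second, 1 barcode of KO1 had 18664 UMIs, of which 947 were *Mcpt8* and 723 *Prss34*, proteases of basophils, and 81 *Cpa3*, a mast cell and basophil protease. It entered the rule through *Cd3d* (1 UMI), *Nkg7* (3) and *Ms4a4b* (2). It also carried 221 UMIs of *Hmgb2* and 16 of *Birc5*, genes of dividing cells. *Cpa3* and *Birc5* were named after their values were seen. Doublets were not removed, and many, though not all, of the results that lean on these barcodes are given with and without them. Leaving out both kinds left 66 members: 15, 21, 19 and 11 in WT1, WT2, KO1 and KO2. Across libraries, 33 barcode sequences occurred more than once, in 66 cells, and 0 of them were members.

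The share of T and NK cells was below 1% of cells in every mouse. WT1 had 19 of 4043 cells (0.470%, 95% exact Clopper-Pearson interval 0.283 to 0.733) and WT2 had 31 of 5742 (0.540%, 0.367 to 0.765). KO1 had 20 of 2900 (0.690%, 0.422 to 1.06) and KO2 had 12 of 5314 (0.226%, 0.117 to 0.394). The *Angpt2*-KO mice held the highest and the lowest share, so the genotypes overlapped. The mean was 0.505% ± 0.0495 in *Angpt2*-WT and 0.458% ± 0.328 in *Angpt2*-KO mice (SD, n = 2 each). The difference of −0.0472 percentage points gave an exact two-sided permutation p = 1.0, where 2 against 2 mice cannot go below 0.333. Without the 15 mixed barcodes the shares were 0.371, 0.366, 0.690 and 0.207%, and the difference turned to 0.0800 points. It also turned when KO2 was left out, to 0.185 points. Intervals cover counting error only. Because fewer ECs in a preparation raise every other share, the share of cells other than ECs was computed too: 2.42, 3.00, 3.14 and 1.04%.

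B cells, chosen by at least 3 of 8 B cell transcripts, numbered 53, 91, 90 and 44 (1.31, 1.58, 3.10 and 0.828%). They outnumbered T and NK cells in all 4 mice, and the mice stood in the same order for both classes, with KO1 highest and KO2 lowest. The libraries therefore differed in both lymphocyte classes, and 2 mice per genotype with 1 library each could not separate genotype from preparation.

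**Figure D1:**
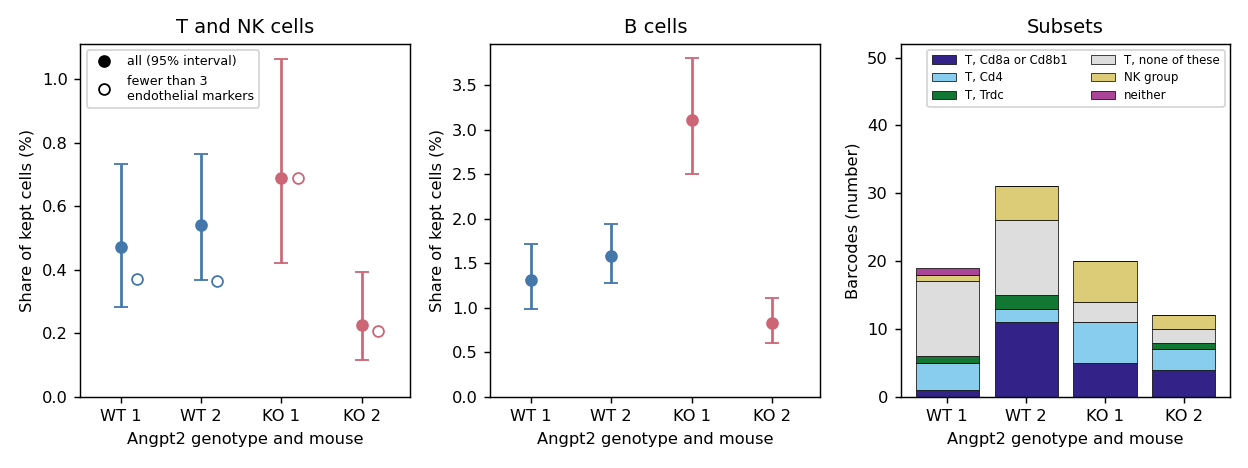
Share of T and NK cells (left) and of B cells (middle) among cells kept, in percent, for each of the 4 mice, with 95% exact binomial intervals; open points leave out barcodes with at least 3 EC transcripts. The right panel stacks the number of T and NK barcodes per mouse by subset. KO1 is highest and KO2 lowest in both shares.

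The rule was met with room in most barcodes. Of the 82, 12 had 3 of the 8 transcripts, 16 had 4, 23 had 5, 19 had 6, 6 had 7 and 6 had all 8. The sum of rule UMIs ran from 3 to 124 with a median of 23.5. Just inside the threshold, the barcodes with 3 transcripts had a median of 14 rule UMIs, while just outside it 6 cells with 2 transcripts had a median of 2.5. Of the barcodes with 3 transcripts, those in the NK group described below held 7 to 124 rule UMIs, and the others 3 to 6. Another 159 cells without a *Cd79a* UMI and 20 with one had 1 rule transcript, and no cell with a *Cd79a* UMI had 3 or more. Members had a median of 4619 UMIs (1098 to 26095), against 5554 in ECs, 3001.5 in B cells and 4363 in microglia. The summed T and NK UMIs were 128765, 198322, 137763 and 47009 in WT1, WT2, KO1 and KO2, so that 1 UMI stood for 7.77, 5.04, 7.26 and 21.3 CPM.

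The 8 rule transcripts chose the cells and are given as a description, with no test. *Cd3e* stood at 171, 272, 196 and 255 CPM in WT1, WT2, KO1 and KO2, and *Cd3d* at 357, 534, 523 and 553. *Trbc2*, a constant region of the receptor β chain, stood at 745, 721, 1096 and 638, and *Trac*, that of the α chain, at 124, 131, 247 and 85.1. *Ccl5*, a chemokine kept ready by effector cells, spread most, from 585 in WT2 to 2243 in KO1. *Ms4a4b*, a T cell membrane protein, was seen in 73 of the 82 barcodes, *Nkg7*, a granule protein of killer cells, in 35 and *Ccl5* in 24. Background in ECs, which should lack these genes, was low at a median of 5554 UMIs: a *Cd3e* UMI occurred in 3 of 14393 ECs (0.0208%) and a *Trac* UMI in 53 (0.368%). These ECs were taken after the members, of which 14 held at least 5 EC transcripts, so the choice of members itself lowered these shares.

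The members were split by rule into a larger T group and a smaller NK group, which differ in CD3 UMIs by construction. The T group had at least 1 UMI of *Cd3e*, *Cd3d*, *Cd3g* or *Trac* and held 67 barcodes. The NK group had 0 of these and at least 2 of *Ncr1*, *Klrb1c*, *Klrd1*, *Klrk1*, *Klre1* and *Eomes*, the receptors and a transcription factor of NK cells, and held 14. In 1 barcode of WT1, with 24142 UMIs and all 7 EC transcripts, neither applied. T barcodes had a median of 9 UMIs over the CD3 genes and *Trac*, up to 32. Of them 13 had 1 to 4, and 3 rested on a single UMI. NK barcodes had 7 to 59 UMIs over the 6 NK genes, with a median of 18, and 11 of the 14 held at least 5 of the 6. The groups met at few barcodes: 44 T barcodes had none of the 6 NK genes, 20 had 1 and 3 had more. Of those 3, 1 barcode of WT1 had a single CD3 UMI with 47 UMIs of *Xcl1* and 57 of *Ccl4*, chemokines made by activated NK and CD8 T cells. Another of WT1 had 6 CD3 UMIs and 4 of the NK genes with 12 UMIs, within the range of the NK group. The last, of WT2, had 24 CD3 UMIs and 2 of the NK genes.

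**Figure D2:**
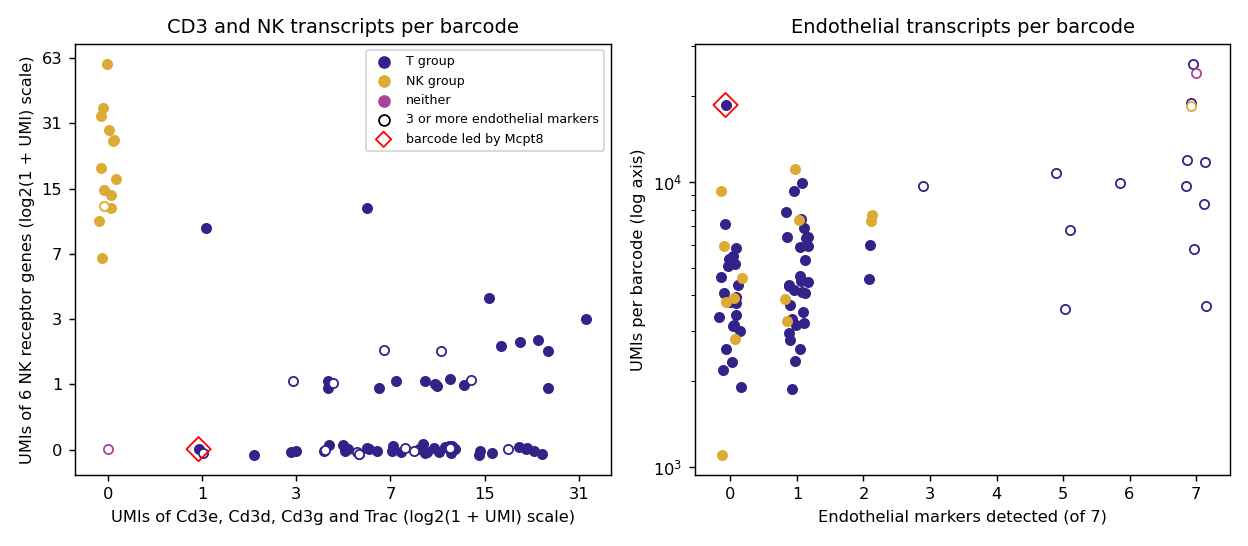
Left, each T and NK barcode by its UMIs over *Cd3e*, *Cd3d*, *Cd3g* and *Trac* and over the 6 NK genes, both as log2(1 + UMIs). Right, the number of EC transcripts detected (0 to 7) against total UMIs on a log axis; open symbols have at least 3 EC transcripts and the diamond is the *Mcpt8* barcode. The 14 NK barcodes lie at 0 CD3 UMIs, by rule, and at 7 or more NK UMIs. Mixed barcodes run from 3577 to 26095 UMIs, with a median of 9933 against 4338 in the others.

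NK barcodes numbered 1, 5, 6 and 2 in WT1, WT2, KO1 and KO2, or 5.26, 16.1, 30.0 and 16.7% of the members. Their exact 95% intervals ran from 0.133 to 26.03% in WT1 and from 11.9 to 54.3% in KO1, and overlapped in all 4 mice. Because only 2 mice had at least 3 barcodes of both groups, no test between them was fitted, and pooled UMIs are given.

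Promoters of the CD3 genes and of *Ncr1* and *Gzma* are shown because these genes mark the T and the NK group here. *Cd3g*, *Cd3d* and *Cd3e* are neighbours on chromosome 9, and *Cd3g* and *Cd3d* are transcribed away from each other with 854 bases between their windows. The windows run from 250 bases before to 50 bases after the start, from RefSeq on GRCm38.p6: *Cd3g* chr9:44980382-44980681 (minus strand), *Cd3d* chr9:44981536-44981835 (plus), *Cd3e* chr9:45009562-45009861 (minus), *Ncr1* chr7:4337465-4337764 (plus) and *Gzma* chr13:113100932-113101231 (minus). Capitals mark matches, on either strand, to core motifs of factor families active in lymphocytes: TGTGGT for RUNX factors, AGGAAG for ETS factors, AGATAA for GATA factors, and CTTTGA for TCF and LEF factors.
Cd3g: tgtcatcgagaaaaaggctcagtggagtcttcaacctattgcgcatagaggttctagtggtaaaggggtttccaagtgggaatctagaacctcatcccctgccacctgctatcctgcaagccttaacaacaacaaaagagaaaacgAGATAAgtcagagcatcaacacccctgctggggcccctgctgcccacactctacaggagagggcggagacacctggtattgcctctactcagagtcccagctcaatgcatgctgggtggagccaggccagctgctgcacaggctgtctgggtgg
Cd3d: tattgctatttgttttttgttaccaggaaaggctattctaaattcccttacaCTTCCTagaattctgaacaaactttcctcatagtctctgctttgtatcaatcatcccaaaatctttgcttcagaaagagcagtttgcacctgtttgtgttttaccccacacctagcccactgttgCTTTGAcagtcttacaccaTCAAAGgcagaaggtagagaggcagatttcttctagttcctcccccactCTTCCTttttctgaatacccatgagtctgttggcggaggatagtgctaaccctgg
Cd3e: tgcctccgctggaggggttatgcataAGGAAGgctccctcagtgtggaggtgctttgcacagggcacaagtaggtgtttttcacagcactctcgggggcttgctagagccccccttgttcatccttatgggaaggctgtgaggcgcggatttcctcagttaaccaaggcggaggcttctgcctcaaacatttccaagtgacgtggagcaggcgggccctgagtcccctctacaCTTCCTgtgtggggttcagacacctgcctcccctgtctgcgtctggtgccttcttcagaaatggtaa
Ncr1: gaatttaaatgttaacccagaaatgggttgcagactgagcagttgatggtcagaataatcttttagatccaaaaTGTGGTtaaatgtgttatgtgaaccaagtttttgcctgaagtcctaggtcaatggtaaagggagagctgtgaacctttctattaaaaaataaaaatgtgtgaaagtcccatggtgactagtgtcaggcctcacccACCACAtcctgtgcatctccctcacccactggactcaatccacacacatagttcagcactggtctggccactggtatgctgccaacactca
Gzma: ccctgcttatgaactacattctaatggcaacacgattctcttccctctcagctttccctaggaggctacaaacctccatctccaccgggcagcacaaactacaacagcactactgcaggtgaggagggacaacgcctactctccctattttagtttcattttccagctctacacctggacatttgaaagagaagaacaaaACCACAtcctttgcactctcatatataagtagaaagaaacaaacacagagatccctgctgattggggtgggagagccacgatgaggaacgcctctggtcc
The RUNX letters occurred at −176 and −41 in *Ncr1* and at −50 in *Gzma*, and in 0 of the 3 CD3 windows. The ETS letters occurred at −198 and −5 in *Cd3d* and at −224 and −17 in *Cd3e*, the TCF/LEF letters at −73 and −54 in *Cd3d*, and the GATA-factor letters at −104 in *Cd3g*. These are common words: of 32851 promoter windows, 16.8% held the RUNX, 35.4% the ETS, 11.2% the GATA-factor and 16.0% the TCF/LEF letters. A match is a description of the sequence and was not tied to binding here.

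The 5 highest ratios of NK over T barcodes were those of *Gzma*, *Lyz2*, *Klra4*, *Klra7* and *Prf1*, and without mixed and *Mcpt8* barcodes those of *Gzma*, *Tyrobp*, *Klra7*, *Klra4* and *Car2*. *Gzma*, the granule protease granzyme A (chr13:113093825-113100981, minus strand), had 354 UMIs in 10 of 14 NK barcodes (3905 CPM) and 3 UMIs in 1 of 67 T barcodes (7.56 CPM). *Prf1*, the pore former perforin, had 36 UMIs against 3. *Ccl5* was seen in all 14 NK barcodes with 3 to 105 UMIs each, at 5659 against 461 CPM. Since NK barcodes could enter only through 3 of *Trbc2*, *Nkg7*, *Ccl5* and *Ms4a4b*, the rule used *Ccl5*, and these levels are a description. *Ccl5* over all members did not follow the NK share from mouse to mouse, since WT1, with 1 NK barcode, had 1646 CPM and WT2, with 5, had 585. That share depends on the rule: T barcodes of WT1 with 1 and 6 CD3 UMIs each held 4 of the 6 NK genes. The NK barcode of WT1 alone held 124 rule UMIs, so the WT1 level rests on few barcodes. *Fcer1g* and *Tyrobp*, adaptors that carry the signal of NK receptors, were detected in all 14 NK barcodes (1743 and 1831 CPM) and in 3 T barcodes each, 1 of them the *Mcpt8* barcode. *Klra4* and *Klra7*, Ly49 receptors for MHC class I, had 43 and 37 UMIs in NK and 0 in T barcodes. Over the members of WT1, WT2, KO1 and KO2, *Klra4* stood at 15.5, 95.8, 160 and 0 CPM and *Klra7* at 7.77, 15.1, 240 and 0, so most *Klra7* UMIs came from KO1 and none from KO2. *Lyz2*, a myeloid lysozyme, ranked among the 5 highest ratios through 1 WT2 barcode alone, which held 47 UMIs and all 7 EC transcripts.

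*Il7r*, the receptor for the survival cytokine IL-7, had 246 UMIs in 53 of 67 T barcodes (620 CPM) and 0 in the 14 NK barcodes, at least 18.7-fold higher in the T group against a floor of 3 UMIs over the NK group. With 3 counts as the limit for 0, this allows up to 21.4% of NK barcodes with an *Il7r* UMI, which limits detection and not expression. *Bcl11b*, a transcription factor that fixes T cell identity, had 90 UMIs against 0 (at least 6.85-fold) and *Cd28*, the costimulatory receptor, 91 against 1. Both *Il7r* and *Cd28* were found in the members of all 4 mice. *Ccr7* and *Lef1*, a homing receptor and a factor of naive T cells, stood at 181 and 421 CPM in the T group against 11.03 and 99.3 in the NK group. *Mcpt8* and *Prss34* headed the T over NK ratios on all members through the 1 barcode described above and left the ranking without it and the mixed barcodes, where *Il7r*, *Ifi27l2a*, an interferon-induced gene (168 UMIs against 0), *Cd28*, *Gm8369* and *Bcl11b* were the first 5. Without mixed and *Mcpt8* barcodes, 53 T and 13 NK barcodes remained, with *Gzma* at 4146 CPM in NK and 12.4 in T and *Tyrobp* at 1844 and 20.7.

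Within the T group, *Cd8a* or *Cd8b1*, the coreceptor for MHC class I, was detected in 21 barcodes, *Cd4*, that for class II, in 15, and both in 0. Detection was sparse: each *Cd4* barcode held 1 or 2 *Cd4* UMIs, and 4 of the *Cd8* barcodes held 1 UMI, so barcodes with both could have been missed. Another 4 held *Trdc*, the constant region of the δ chain, with 4 to 9 UMIs each, and in the other 27 none of these was detected. By mouse, the counts of *Cd8*, *Cd4* and *Trdc* barcodes were 1, 4 and 1 in WT1, 11, 2 and 2 in WT2, 5, 6 and 0 in KO1, and 4, 3 and 1 in KO2. *Cd8* barcodes thus outnumbered *Cd4* barcodes in WT2 and KO2 and not in WT1 and KO1, and the difference was not tested. All 4 *Trdc* barcodes carried a γ chain constant region (*Tcrg-C1*, *Tcrg-C2* or *Tcrg-C4*) and 0 carried *Trac*. The 27 undetected barcodes had a median of 4338 UMIs against 5486 in *Cd8* and 5154 in *Cd4* barcodes, and 9 of them were mixed against 2 and 2.

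Ratios of *Cd8* over *Cd4* barcodes, pooled over mice, are a description with no test. The first 5 were *Ly6c2*, *Ccl4*, *Ctsw*, the mitochondrial carrier *Slc25a4* and *Dnajc15*, and without mixed barcodes *Ly6c2*, *Epsti1*, *Dnajc15*, *Ccl4* and *Ctsw*. *Ly6c2*, a surface protein of memory CD8 T cells and monocytes, had 60 UMIs in *Cd8* and 0 in *Cd4* barcodes (at least 12.6-fold), *Ccl4* 27 and 0 (at least 5.68-fold) and *Ctsw*, a granule protease, 27 and 3. Their UMIs came from few cells: *Ly6c2* from 8 of 21 *Cd8* barcodes and *Ccl4* from 2. Over the members of WT1, WT2, KO1 and KO2, *Ly6c2* stood at 23.3, 338, 196 and 21.3 CPM. WT2 held 11 of the 21 *Cd8* and 2 of the 15 *Cd4* barcodes. *Klrd1*, the CD94 receptor chain, was seen in 13 of 21 *Cd8* barcodes and 0 of 15 *Cd4* barcodes, which allows up to 20% of barcodes with a UMI. *Gzma* was at 0 UMIs in both. In the other direction the highest ratios were those of *Cxcl12* (37 UMIs against 1), *Kitl* (28 against 7), *Gm12840*, *Sgms1* and *Flt1* (77 against 29). *Cxcl12*, *Kitl* and *Flt1* are made by vascular cells, and without the mixed barcodes all 3 left the first 5, where *Gm12840*, *Smad7*, an inhibitor of TGF-β signalling (32 against 14), *Slfn1*, *Cytip* and *Tle5* stood. *Il7r* stood at 642 and 952 and *Ccr7* at 179 and 193 CPM in *Cd8* and *Cd4* barcodes.

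The 4 *Trdc* barcodes had another profile, though few UMIs support each value. *Cxcr6*, a chemokine receptor of tissue-lodged lymphocytes, stood at 1007 CPM in them (15 UMIs in 2 barcodes) against 24.4 in *Cd8* and 12.9 in *Cd4* barcodes. *Ccr2*, a receptor for inflammatory sites, stood at 671 CPM against 8.12 and 25.7. *Ccr7* and *Dapl1*, genes of naive T cells, were at 0 UMIs. With 4 barcodes of 2590 to 4465 UMIs each, that limits detection and is not read as a difference from the other T barcodes. *Il17a*, the cytokine of type 17 cells, was found in 2 T barcodes, 1 with *Trdc* and 3 UMIs and 1 without it and 14 UMIs, the latter also with 4 UMIs of *Areg*, a tissue repair factor. Regulatory T cells could not be set apart at this depth: *Foxp3*, their defining factor, was found in 1 barcode with 3 UMIs, which held *Cd8a* (8 UMIs) and no *Cd4*.

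**Figure D3:**
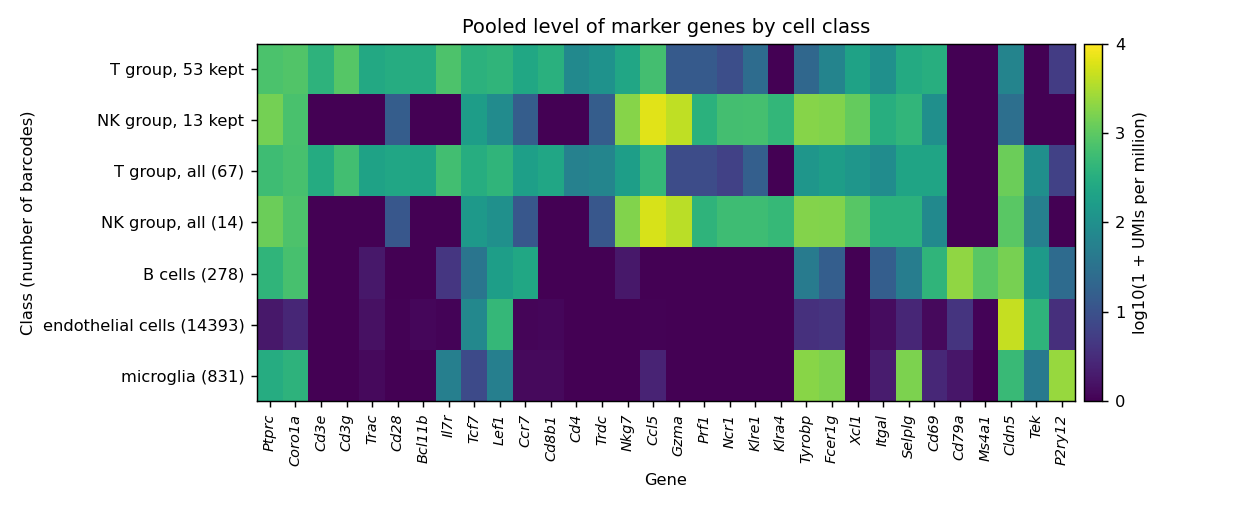
Level of 32 genes as log10(1 + CPM), pooled over mice, in T and NK barcodes without and with the mixed and *Mcpt8* barcodes, and in B cells, ECs and microglia. CD3 genes and *Il7r* are high in the T rows, *Gzma*, *Ncr1* and *Tyrobp* in the NK rows, and the EC genes *Cldn5* and *Tek* drop once barcodes with EC transcripts are left out, by construction.

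The next comparison asked which genes set T and NK cells apart from all other cells of the same mouse, with UMIs summed per mouse and class and edgeR's quasi-likelihood test on 13222 genes at an adjusted p of 0.05. Of these, 2165 (16.4%) were called: 893 (6.75%) were higher in T and NK cells and 1272 (9.62%) lower, with a median log2 fold change of −0.40 over all genes tested. Without KO2 the split turned, to 686 higher and 462 lower. The rule genes were left out of these counts, as were the B cell markers in the comparison with B cells. Since the cells were picked by T and NK cell transcripts, other genes of these cells were bound to be higher, and counts in such lists are a description. Fold changes below are log2 with their SE. Where a class had 0 UMIs the bound against 3 UMIs over the class is given in place of the fitted value.

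The shared leukocyte genes came first: all 10 of a list of pan-leukocyte genes were higher (median 5.41). *Ptprc*, the phosphatase CD45, stood at 505, 545, 900 and 872 CPM in T and NK cells of WT1, WT2, KO1 and KO2, against 11.99, 9.69, 25.2 and 15.8 in other cells (5.69 ± 0.36, adjusted p = 8.56e-24). The classes did not overlap in any mouse.

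Receptor signalling followed. All 18 genes of T cell receptor signalling were higher. *Lck*, the kinase that starts the signal, stood at 194, 182, 182 and 170 CPM against 0.458, 0.492, 0.401 and 0.631 (8.71 ± 0.39). It thus lay between 170 and 194 CPM in all 4 mice. *Cd28* had 210, 171, 145 and 234 CPM (11.84 ± 0.47), and *Skap1*, an adaptor of the same pathway, had 145 UMIs against 20 in 17917 other cells. *Zap70* had the smallest rise, 2.12 ± 0.49 (adjusted p = 0.000675), with 1644 UMIs in other cells at 9.59 to 13.8 CPM, and did not pass without KO1 (1.498, adjusted p = 0.146). Of the coreceptors, *Cd8b1* (31.1, 187, 298 and 213 CPM) and *Cd4* (46.6, 10.1, 65.3 and 106) were higher, and *Cd8a* was not tested, with 0 UMIs in WT1.

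Of 14 transcription factors, 12 were tested and 8 were higher. *Bcl11b* stood at 132, 151, 225 and 255 CPM (9.90 ± 0.42), *Runx3*, a factor of CD8 T and NK cells, at 62.1, 50.4, 319 and 170 (7.84 ± 0.48), and *Tcf7*, a factor of naive and memory T cells, at 295, 227, 283 and 383 against 61.3 to 85.1 in other cells (2.24 ± 0.32). *Lef1*, its relative, did not pass, at 380, 348, 298 and 532 CPM against 406 to 484 (−0.02 ± 0.30, adjusted p = 0.977). Other cells here were mostly brain ECs, in which *Lef1* serves Wnt signalling. *Ets1* stood at 406 to 553 against 358 to 524 CPM (adjusted p = 0.547).

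Genes of killing and of NK receptors were higher in most cases. Of 19 NK receptor genes 11 were tested and all 11 were higher. *Ncr1*, the receptor NKp46 (chr7:4337724-4345164, plus strand), had 38.8, 90.8, 160 and 170 CPM and 0 UMIs in 17917 other cells, at least 4818-fold. *Gzma* stood at 357, 726, 944 and 787 CPM, against 2 UMIs in all other cells. Of 12 cytotoxic genes 10 were tested, 6 were higher and 1 was lower. Without the NK group 2 of 6 cytotoxic and 4 of 5 NK receptor genes tested were higher. Without WT2, and again without KO1, 4 of 9 cytotoxic genes tested were higher. *Ifng*, interferon-γ, had 31.1, 30.2, 72.6 and 192 CPM and 0 UMIs in other cells (at least 2636-fold), and *Fasl*, a death ligand, had 15 UMIs in all. *Lamp1*, a lysosome protein that most cells make, was the lower one, at 202, 176, 109 and 21.3 against 298 to 365 CPM (−1.18 ± 0.36, adjusted p = 0.0134, and 0.184 without KO2). It did not pass with DESeq2 (adjusted p = 0.0682) or with no mouse term (0.0548).

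**Figure D4:**
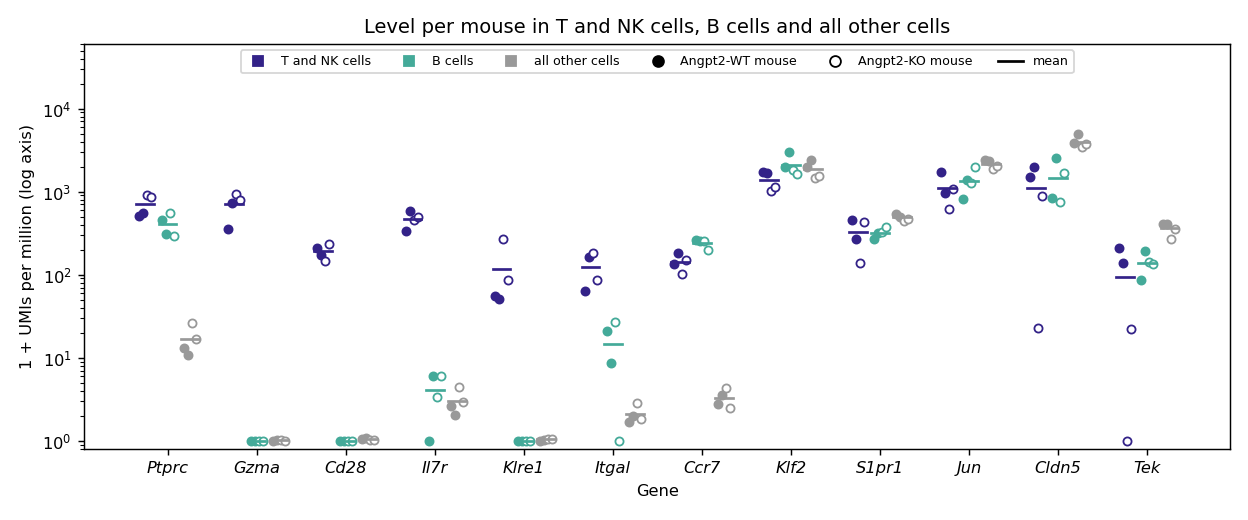
Level of 12 genes in T and NK cells, B cells and all other cells of each mouse, on a log axis of 1 + CPM. T and NK cells of all 4 mice lie above other cells for *Il7r*, *Gzma* and *Ptprc*, and the KO1 members lie far below the others for *Cldn5*.

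Genes of recirculation and of tissue stay were both present. Of 13 genes of circulating or naive cells 12 were tested and 7 were higher. *Il7r* stood at 334, 590, 457 and 489 CPM against 1.65, 1.05, 3.39 and 1.95 (8.10 ± 0.43, adjusted p = 4.61e-29) and *Ccr7* at 132, 182, 102 and 149 (6.12 ± 0.39). Both lay above other cells in all 4 mice. *S1pr1*, the receptor that draws lymphocytes back into blood, and its activator *Klf2* did not pass, and both are also abundant in ECs: *S1pr1* stood at 458, 267, 138 and 426 CPM against 446 to 540. Without the mixed barcodes both were lower in T and NK cells, *S1pr1* at −1.16 (adjusted p = 4.36e-06) and *Klf2* at −0.56 (adjusted p = 0.000248), and the list had 8 higher and 2 lower. Of 15 genes of residency or activation 11 were tested, 6 were higher and 1 was lower. *Cd69*, which holds cells in tissue and marks activation, stood at 155, 141, 269 and 192 CPM (5.66 ± 0.34), *Cxcr6* at 54.4, 85.7, 94.4 and 149 (9.30 ± 0.61), and *Itgae*, the integrin CD103, at 21.3 to 36.3 CPM from 15 UMIs. *Itga1* was lower (−1.97 ± 0.38, adjusted p = 0.0675 without KO2 and 0.0530 with no mouse term). Without the mixed barcodes 6 genes of this list were higher and 2 lower. Of 6 regulatory T cell genes 3 were tested and higher, *Ctla4* from 9 UMIs, *Tnfrsf18*, and *Ikzf2*, which did not pass without KO1 (adjusted p = 0.0588). Without WT1 2 of the 3 tested were higher. Of 10 γδ T and innate lymphoid genes 2 were tested and higher, among them *Trdc* with 27 UMIs, and without WT2 1 was tested and 0 passed.

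Adhesion genes are those with which lymphocytes hold to vessels. All 12 were tested, 9 were higher and 2 lower, with a median of 4.53. *Itgal* and *Itgb2*, the chains of LFA-1, stood at 62.1, 161, 182 and 85.1 CPM (7.04 ± 0.44) and at 54.4, 126, 203 and 213 CPM (4.51 ± 0.37). *Itga4* and *Itgb7*, chains of integrins that bind VCAM1 and MAdCAM1, were at 166 to 213 and 101 to 234 CPM (1.86 ± 0.38 and 7.25 ± 0.43). *Selplg*, the selectin ligand PSGL-1, was at 148, 212, 319 and 319 against 25.5 to 91.4 CPM (2.50 ± 0.33). The 2 lower genes, *Icam2* (−1.33 ± 0.37, adjusted p = 0.00582) and *Itgb1* (−0.84 ± 0.31, adjusted p = 0.0490), are also made by ECs. *Itgb1* did not pass without WT2, KO1 or KO2 (adjusted p = 0.0768, 0.106 and 0.275). It also did not pass without the *Mcpt8* barcode (0.0694), with DESeq2 (0.0763) or with no filter on low counts (0.0532). *Icam2* did not pass without KO2 (0.0618), and *Itga4* not without WT2 (0.0654) or with no mouse term (1.16, adjusted p = 0.349).

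Of 14 chemokines and chemokine receptors 10 were tested, 9 were higher and 1 was lower. *Xcl1* stood at 365, 90.8, 457 and 85.1 CPM, against 2 UMIs in all other cells, its 47 UMIs in WT1 all lying in the 1 WT1 barcode with a single CD3 UMI. *Ccr2* stood at 54.4, 35.3, 152 and 234 (5.78 ± 0.46). *Ccl4*, at 885, 30.2, 276 and 234 CPM, was uneven, and 57 of its 169 UMIs came from that WT1 barcode. *Cx3cr1*, which microglia express strongly, was the lower one (−2.99 ± 0.54). Of 12 cytokine receptor genes 9 were tested and 8 were higher, with a median of 3.67, among them *Il2rb* (15.5, 106, 312 and 42.5 CPM), the IL-2 and IL-15 receptor chain, and *Il18r1* (77.7, 60.5, 240 and 170). Both were highest in KO1. Of 12 cytokines 5 were tested and 3 were higher, *Ifng*, *Ltb* at 218, 429, 501 and 468 CPM, and *Tnf*, which did not pass without KO1 (adjusted p = 0.426).

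**Figure D5:**
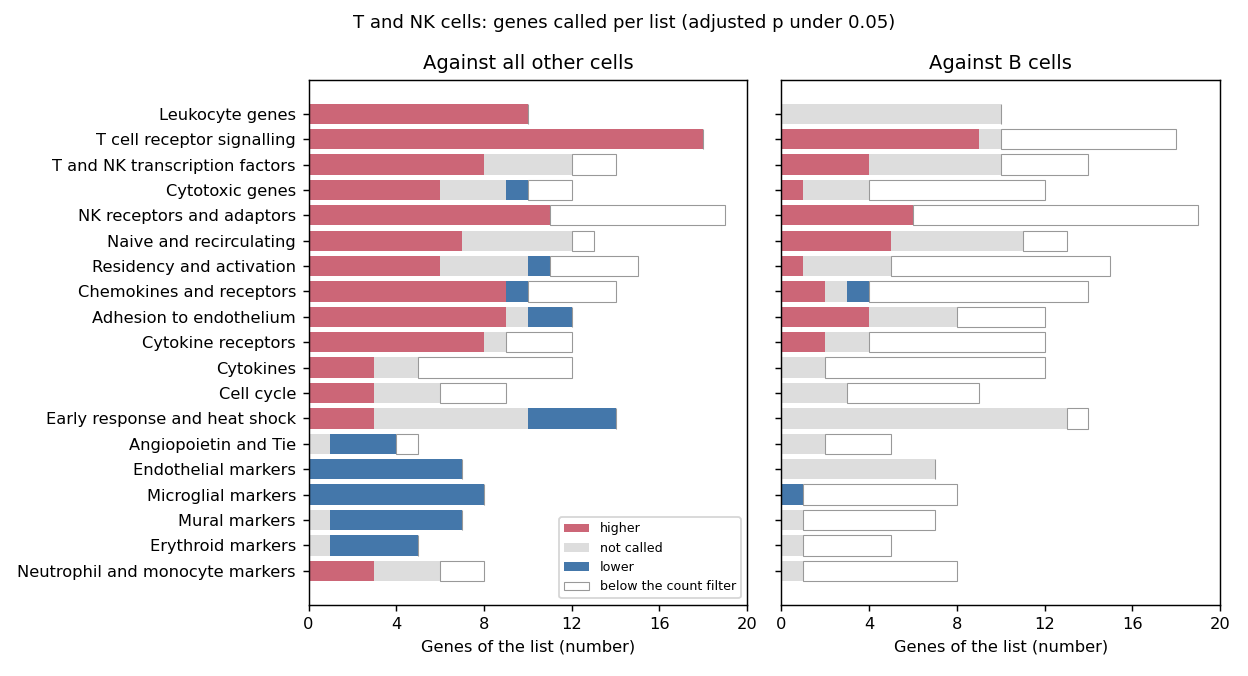
Number of genes higher, lower and not called in each gene list, for T and NK cells against all other cells (left) and against B cells (right), edgeR quasi-likelihood test at an adjusted p of 0.05. Lists of T and NK cell genes describe the cells that were picked; EC genes are lower against all other cells (7 of 7) and not called against B cells (0 of 7).

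Of 9 proliferation genes 6 were tested and 3 were higher, *Hmgb2*, *Top2a* and *Cdk1*. *Hmgb2* stood at 233, 287, 1974 and 426 CPM and *Top2a* at 0, 0, 254 and 21.3, and KO1 held the *Mcpt8* barcode with 221 of the *Hmgb2* UMIs. Without that barcode *Hmgb2* and *Top2a* still passed and *Cdk1* did not (adjusted p = 0.914). *Top2a* did not pass with DESeq2 (2.78, adjusted p = 0.0854) or with at least 4 rule transcripts (2.46, adjusted p = 0.0578). *Cdk1* did not pass with at least 4 rule transcripts (adjusted p = 0.881), with no mouse term (0.0516) or without KO2 (0.0549). Without KO1 only *Hmgb2* passed of the 3, with *Top2a* and *Cdk1* at adjusted p = 0.808 and 0.755. Without WT1, and again without WT2, 5 of 8 genes tested were higher. The list had 2 higher and 1 lower without the *Mcpt8* barcode, and 1 of each with at least 4 rule transcripts.

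Genes of the immediate early and heat shock response are induced by tissue dissociation in many cell types. All 14 were tested, 3 were higher and 4 lower, with a median of −0.65. *Jun* stood at 1740, 953, 617 and 1085 CPM against 2420, 2331, 1881 and 2047 (−0.91 ± 0.23, adjusted p = 0.0023), and *Dusp1*, a phosphatase of the same programme, at 652, 408, 203 and 383 against 720 to 944 (−1.02 ± 0.29). *Atf3* and *Egr1* were lower too. The 3 higher were the chaperones *Hsph1* (1.81 ± 0.38), *Dnajb1* (1.27 ± 0.32) and *Hspa1b* (0.92 ± 0.33, adjusted p = 0.0457). These counts turned on single libraries: 1 gene was lower without WT2, 1 without KO2, and 10 without the mixed barcodes. Without WT2 and without KO2 the adjusted p was 0.0562 and 0.0595 for *Jun*, 0.0621 and 0.0905 for *Dusp1*, and 0.124 and 0.278 for *Egr1*. *Dnajb1* did not pass without WT2 (0.0547), and *Hspa1b* not without any 1 of the 4 mice (0.0640 to 0.367). Without the *Mcpt8* barcode *Hspa1b* (0.0515) and *Egr1* (0.0525) did not pass, nor did they with DESeq2 (0.143 and 0.0771). *Hspa1b* also did not pass with no filter on low counts (0.0587). With no mouse term *Jun*, *Dusp1* and *Egr1* did not pass (0.0776, 0.0644 and 0.103).

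The angiopoietin and Tie genes, which the mutation concerns, were lower or not called in these cells. Of 5 genes 4 were tested and 3 were lower. *Angpt2* had 1 UMI among the 82 barcodes, in KO2. *Tek*, the receptor Tie2, stood at 210, 136, 0 and 21.3 CPM against 267 to 412 in other cells (−2.06 ± 0.42), and *Tie1* at 132, 106, 0 and 0. Both are among the 7 EC transcripts that define mixed barcodes, of which WT1, WT2, KO1 and KO2 held 4, 10, 0 and 1. Their levels per mouse are therefore not read as a difference between genotypes, which was not tested. *Angpt1*, which was not called, had 8 UMIs, all in KO1, and passed without the mixed barcodes (2.07, adjusted p = 0.0305). Without KO2 the adjusted p was 0.0646 for *Tek* and 0.0648 for *Tie1*, and without KO1 it was 0.206 for *Angpt2*. With no mouse term it was 0.0701 for *Tek* and 0.171 for *Angpt2*.

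Markers of other cell types were checked as whole lists. All 7 EC transcripts were lower (median −2.09), but 1 of 7 without KO2, 2 with no mouse term and 6 with DESeq2. Their summed level was 5995, 3963, 94.4 and 1532 CPM in T and NK cells against 10270 to 11490 in other cells. *Cldn5*, a tight junction protein and the most abundant of them, stood at 1514, 1956, 21.8 and 893 CPM against 3452 to 4954 (−2.29 ± 0.34, adjusted p = 0.0579 without KO2). WT1, WT2, KO1 and KO2 held 4, 10, 0 and 1 mixed barcodes. Without these and the *Mcpt8* barcode *Cldn5* was at 62.2 CPM in T and 27.7 in NK barcodes, a drop that follows from how the mixed barcodes were left out. All 8 microglia genes were lower, with a summed level of 50.8 to 170 CPM, and 1 of them at 0 UMIs. Of the B cell genes, *Ly6d* and *Iglc2* had 0 UMIs and were lower, not passing without WT2, KO1 or KO2 (adjusted p = 0.0575 to 0.203). They also did not pass with DESeq2 (0.0710 and 0.114) or with no mouse term (0.288 and 0.229). *Ighm* was higher (1.78 ± 0.36) at 70.6 to 116 CPM, against 1430 to 3586 CPM in B cells, and did not pass with no mouse term (1.73, adjusted p = 0.0660). Of 7 mural genes 6 were lower and of 5 erythroid genes 4, with *Hbb-bs*, a haemoglobin chain, at 20.2 to 213 against 3096 to 3462 CPM (−5.49 ± 0.33). Of the neutrophil and monocyte genes *Ly6c2*, *Plac8* and *Ccr2*, which lymphocytes also express, were higher of 6 tested, and of the astrocyte and oligodendrocyte genes *Slc1a2* and *Mbp* of 5 tested. *Slc1a2* UMIs came from WT2 (207 CPM) and KO2 (21.3), and its fold change turned to −1.91 without WT2 (adjusted p = 0.528). Without the mixed barcodes it was not called higher either (adjusted p = 0.0502). *Mbp* did not pass without WT1, KO1 or KO2 (adjusted p = 0.0700, 0.0858 and 0.0764). Platelet genes were not called in either direction (0 of 4).

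The 10 largest rises by fitted value, of the same sign in every mouse, included *Trbc1*, the other β chain constant region (155, 267, 588 and 340 CPM). *Trbc1* is a gene of the signalling list. From outside the lists came *Sh2d1a*, the adaptor SAP (34 UMIs against 0), and *Cd40lg*, the helper ligand (32 against 0). With them stood *Cd96*, a receptor of T and NK cells (23 against 0), and the RNA *Gm2682* (80 against 1). Fitted values over 0 UMIs are no folds: the bound of *Cd96* (at least 2091-fold) lies below the pooled ratio of *Prf1* (3546). The 5 strongest falls by fitted value were genes with 0 UMIs in T and NK cells. These passed the count filter only through the other cells, so their calls are a description. They were *Igkc*, the κ light chain (at least 9.65-fold lower), *F5*, coagulation factor V (8.84), and *Ptprk*, a receptor phosphatase (7.80). The other 2 were the microglia genes *Siglech* (7.51) and *Fcrls* (7.41). These bounds lie below the pooled 54.0-fold fall measured for *Hbb-bs*. With no mouse term *Igkc*, *F5*, *Siglech* and *Fcrls* did not pass (adjusted p = 0.0885, 0.111, 0.0893 and 0.0871).

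The comparison with B cells asked what T and NK cells held beyond the genes of lymphocytes in general. It rested on 278 B cells and 3048 genes, of which 178 (5.84%) were called: 75 (2.46%) were higher and 103 (3.38%) lower in T and NK cells, with a median of −0.11. The split turned without WT1, to 156 higher and 124 lower, and with at least 4 rule transcripts, to 141 and 122. Genes at 0 UMIs in B cells entered the test only through the T and NK sums, so their calls are a description. Genes at 0 UMIs in T and NK cells entered only through the B cell sums, and their calls are a description too. None of the 10 pan-leukocyte genes passed: *Ptprc* was at 454, 308, 551 and 292 CPM in B cells (0.86 ± 0.31, adjusted p = 0.200) and *Coro1a*, a cytoskeleton protein, at 0.16 ± 0.32 (adjusted p = 0.877). Without WT1 *Ptprc* passed (1.16, adjusted p = 0.0460). Without the mixed T and NK barcodes 8 of the 10 were higher, *Ptprc* at 1.29 and *Coro1a* at 0.55, and without those of both classes 1 was higher and 1 lower, *Ptprc* being higher at 0.53 (adjusted p = 0.00653).

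Genes of T cell signalling and identity were among those higher. Of 10 signalling genes tested 9 were higher, all but *Cd2*, and of 10 transcription factors 4, *Bcl11b*, *Tcf7*, *Id2* and *Lef1*. Without the mixed T and NK barcodes 7 of 9 transcription factors tested were higher and 1 was lower. Without those of both classes 5 of 8 were higher and 1 was lower. *Il7r* had 0, 5.05, 2.37 and 4.95 CPM in B cells (7.07 ± 0.41, adjusted p = 0.000136). *Tcf7* had 15.1, 42.9, 33.1 and 39.6 (3.18 ± 0.33, adjusted p = 0.000933) and *Lef1* 111, 217, 151 and 193 (1.26 ± 0.27, adjusted p = 0.0309), so that *Lef1*, not called against the other cells, was called against B cells, with no overlap in any mouse. Leaving out any 1 of the 4 mice took *Lef1* above 0.05 (adjusted p = 0.0501 to 0.0940). *Ccr7*, *S1pr1* and *Klf2* did not pass against B cells, with *Ccr7* at −0.75 ± 0.28 (adjusted p = 0.222). Without mixed barcodes of both classes *Ccr7* (−0.90, adjusted p = 0.000853) and *Klf2* (−0.70, adjusted p = 1.08e-06) were lower in T and NK cells. The homing genes were thus measured in both lymphocyte classes.

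Of 8 adhesion genes tested 4 were higher in T and NK cells. *Itgal* had 20.2, 7.57, 26.02 and 0 CPM in B cells (3.24 ± 0.57, adjusted p = 0.0108) and *Itgb2* 15.1, 15.1, 26.02 and 4.95 (3.18 ± 0.47, adjusted p = 0.0053). *Selplg* and *Itgb7* followed at 2.39 ± 0.34 and 2.28 ± 0.41. All 4 lay higher in T and NK cells of every mouse, but without WT2 none of the 7 adhesion genes then tested passed, with *Itgal*, *Itgb7* and *Selplg* at adjusted p = 0.130, 0.0881 and 0.0513 and *Itgb2* not tested. *Cxcr4*, the receptor for CXCL12, was the one chemokine receptor that was lower, at 23.3, 35.3, 152 and 63.8 CPM against 358, 247, 263 and 411 (−2.27 ± 0.50, adjusted p = 0.0329, and 0.226 without WT2 and 0.109 without KO2). Of 4 chemokine genes tested *Xcl1* and *Cxcr6* were higher. Both had 0 UMIs in B cells, and *Xcl1* was at least 105-fold higher.

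All 6 NK receptor genes tested were higher than in B cells, *Gzma* was the 1 cytotoxic gene of 4 (at least 284-fold), and *Il7r* and *Il18r1* the cytokine receptors of 4. Of 5 residency genes *Cxcr6* was higher, while *Cd69* was at 292 to 514 CPM in B cells (−1.08 ± 0.30, adjusted p = 0.0908) and was called lower with no filter on low counts (−1.15, adjusted p = 0.0353) and without mixed barcodes of both classes (−1.25, adjusted p = 5.59e-08). Early response genes (0 of 13), proliferation genes (0 of 3), cytokines (0 of 2), EC genes (0 of 7) and angiopoietin and Tie genes (0 of 2) did not pass in either direction at the adjusted threshold. Mixed barcodes occur in both classes, 15 of 82 and 34 of 278, and the EC sum was 2743, 5215, 2756 and 5289 CPM in B cells. Without those of both classes the early response list had 7 lower of 12 tested, the proliferation list 1 higher of 2 and the cytokine list 1 lower of 2. The EC and Tie genes are not read there, since EC transcripts chose the barcodes left out.

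Among the 10 largest rises by fitted value against B cells were *Gzma*, *S100a4*, *Trbc1*, *Skap1*, *Xcl1*, *Bcl11b*, *Cd28*, *Thy1* and *Klre1*, each with 0 UMIs in B cells. *S100a4*, a calcium-binding protein of memory T and NK cells, stood at 466, 303, 450 and 277 CPM (at least 155-fold). The largest falls by fitted value were *Igkc* (at least 1084-fold lower), *Iglc1* (178), *Iglc3* (142) and *Vpreb3* (88.01), chains and a chaperone of the antibody. With them stood *H2-Aa*, an MHC class II chain, with 1 UMI against 2408. Since B cells were picked by B cell transcripts, other genes of B cells were bound to be lower, and these falls are a description.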

How the data were processed

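Members and gene lists were chosen with earlier results of these data known. UMI counts per gene and barcode were deposited by the authors as filtered matrices, made with Cell Ranger 6.1.2 per the processing notes (mm10; the file headers name 6.1.1) from 10x 3′ libraries, 1 per mouse. Barcodes with over 500 genes and under 10% mitochondrial UMIs were kept, as in the study; their summed UMIs ran from 31753395 (KO2) to 42903731 (WT2) per library. Counts were summed per mouse and class (at least 5 cells) and tested with edgeR 4.0.16 (R 4.3.3; filterByExpr, TMM, glmQLFit, mouse as a term, Benjamini-Hochberg adjustment, 0.05); DESeq2 1.42.0 was an alternative. Scripts were tested on simulated data. Against all other cells 6% of genes changed 2-fold and 41% of those changed 4-fold were called there. Against B cells 9 and 76% were called, so a gene that did not pass is not shown to be alike between classes. Mice are separate animals. Named genes are those of the fixed lists. Added to them are the 10 largest rises and 5 largest falls by fitted value, of the same sign in every mouse. For subsets they are the 5 highest CPM ratios among genes with at least 20 UMIs. B cells had *Cd79a* and at least 3 of 8 B cell transcripts, microglia at least 5 of 8 microglia transcripts, and ECs, of the rest, at least 5 of 7 EC transcripts. Shares were compared by exact permutation, with Clopper-Pearson intervals. Genotype effects on genes within the members were not tested. Some listed genes are not reported here.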

Additional observations from a re-analysis of the deposited data

How the results depend on the processing

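The count of genes called against all other cells (2165) stayed within 1.5 times under DESeq2 (1596), RLE size factors (2312), no filter on low counts (2249), no mouse term (2048), at least 4 rule transcripts (2629), no NK group (1964) and no *Mcpt8* barcode (2126), and rose to 3523 (960 higher, 2563 lower) without mixed barcodes. Leaving out 1 mouse gave 1148 to 2216, with 1386 without KO1 and 1148 without KO2 (686 higher, 462 lower). DESeq2 gave no adjusted p for 1796 genes. Against B cells (178) the count rose to 521 with no filter on low counts, to 759 without mixed T and NK barcodes and to 488 without mixed barcodes of both classes. Leaving out 1 mouse gave 82 (without WT2) to 280 (without WT1, 156 higher and 124 lower). The split into higher and lower was 818 and 778 with DESeq2 and 907 and 1405 with RLE size factors against all other cells. The causes were not tested.

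The difference in share between genotypes (−0.0472 points) turned to 0.0800 without mixed barcodes and ran from −0.279 to 0.185 when 1 mouse was left out, 0.185 without KO2. It was −0.620 with cells other than ECs as the denominator and −0.0383 after thinning to 2000 UMIs. With same-numbered mice, which the labels give the same sex, as a replicate block, it was −0.0472 with an exact permutation p = 1.0. In the fits across genes each mouse was already a term. Deviations of same-numbered mice from their genotype's mean correlated at 0.00258 over 12297 genes.

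Of 109 results on named genes, 82 of 1304 values lost and 12 gained their call with the same sign, and 17 changed sign. Among genes with a call only *Slc1a2* changed sign, at −1.91 without WT2 and −10.88 without mixed barcodes, and it lost its call in both. The others were not called. Against all other cells *Angpt1* stood at −0.35 with DESeq2 and −9.73 with at least 4 rule transcripts, was called at 2.07 without mixed barcodes, and ran from −9.90 to 2.15 when 1 mouse was left out. *Lef1* stood at 0.17 without the NK group, 0.0482 without the *Mcpt8* barcode, and −0.144 to 0.0313 when 1 mouse was left out, the range for *Slc1a2* being −1.91 to 2.73. Against B cells *S1pr1* stood at 0.0340 with no mouse term, 0.0724 without the NK group, 0.0388 without the *Mcpt8* barcode, and −0.29 to 0.29 when 1 mouse was left out. *Cd2* and *Coro1a* stood at −0.0692 and −0.15 without mixed barcodes of both classes, and at −0.0185 to 0.44 and −0.10 to 0.47 when 1 mouse was left out. Fitted values near −10 belong to genes with 0 UMIs in T and NK cells and are no folds.

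NK and T barcodes were not compared by a test, nor were its alternatives run, since only 2 mice had at least 3 of both. With 82 barcodes and 511859 UMIs, 1 UMI was worth up to 21.3 CPM, so genes under about that level could not be told from 0 in single mice. Droplets with 2 cells and free RNA cannot be told apart in mixed barcodes.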
